A study of Mus musculus with 2 samples.

Results

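Adrenomedullin, apelin and endothelin are small secreted peptides that act through G protein-coupled receptors, and 10 genes of these pathways were followed here by their gene symbols. They were 3 peptide ligands (Adm, Apln and Edn1), 4 receptors (Calcrl, Aplnr, Ednra and Ednrb) and 3 receptor activity-modifying proteins, or RAMPs (Ramp1, Ramp2 and Ramp3). All 10 were found among the 24354 genes of the series. The data are 2 RNA-seq libraries, Diff–CONT ESCs in 1 and Diff–iKO ESCs in the other, from mouse embryonic stem cells taken through embryoid bodies (EBs). The study's methods give floxed Ino80 alleles in both ESC lines and ROSA26-CreER, a tamoxifen-dependent Cre recombinase, in the iKO line, whereas the labels call the control genotype WT and the other one Ino80 knockout. EBs of both lines were plated on gelatin at day 4 in a medium with serum replacement. From the following day they were kept for 7 days in serum medium with BMP4 and 0.5 µM 4-hydroxytamoxifen (4-OHTM), the drug that activates CreER. Both libraries therefore carry the drug and the BMP4. The 2 ESC lines came from different blastocysts, so Cre, the loss of Ino80 and other differences between the lines cannot be told apart. EB cultures hold many cell types, and as each condition has 1 library, the conditions could not be tested against each other.

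Adrenomedullin binds a receptor made of Calcrl together with a RAMP: Ramp2 and Ramp3 give adrenomedullin receptors, and Ramp1 turns the same receptor towards calcitonin gene-related peptide (CGRP). Apelin and a second peptide, Apela, share the receptor Aplnr, which is needed for the heart and early vessels. Endothelin-1, encoded by Edn1, acts on Ednra in vessel wall, heart and facial mesenchyme, and Ednrb is known for its part in neural crest cells and in endothelium.

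Values are FPKM, in which fragments are divided by transcript length and by library size, so levels of different genes within a library can be set side by side. The fragments behind each value were recovered from the steps in which low FPKM values rise. Of the low values, 85.7% in Diff–CONT and 84.5% in Diff–iKO lay within 0.2 of a whole number of fragments. A step fixed in advance would give 40% by chance, but the step was fitted to these same values. The shares are therefore no independent check. In all, 27574481 fragments were recovered on genes of Diff–CONT, against 21456654 in the other library. All intervals below are exact 95% intervals from these fragments (Poisson for a level, Clopper-Pearson for a log2 ratio) and cover counting error only, not the spread between cultures. Ino80 itself, counted over the whole gene, was at 8.90 FPKM in Diff–CONT and 10.3 in Diff–iKO, a log2 ratio of 0.21 (0.11 to 0.31). The label is thus not borne out by this value, which would not show the loss of a few exons, and the sample is called the library labelled Diff–iKO here. All log2 ratios are of that library over Diff–CONT.

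The cut-off followed the limits in the study's methods, FC ≥ 2 with FPKM ≥ 2. The FPKM limit was applied here to at least 1 library and the fold change to values without a pseudocount, choices that the methods do not state. Of the 10 genes, 9 reached the FPKM minimum, 5 of them were past the cut-off with the lower value in the library labelled Diff–iKO (Aplnr, Apln, Ramp2, Calcrl and Ednra), and 0 were past it with the higher value. Aplnr, Apln and Calcrl reached the FPKM minimum in Diff–CONT alone, and with the minimum asked of both libraries 2 of the 5 were past the cut-off, Ednra and Ramp2. Among all 12376 genes that reached the minimum, 8.39% were past the cut-off as lower, 6.73% as higher and 15.1% in either direction. With the minimum asked of both libraries, the 1038 lower genes became 569 and the 833 higher ones became 488. The median log2 ratio of FPKM + 0.1 was -1.13 over the 9 genes and -0.0045 over all 12376. The genes were chosen by pathway with earlier results of these data known, so these counts are a description.

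Stretches of the proximal promoters are shown before the values. RefSeq windows of GRCm38.p6, from 250 bases before to 50 bases after the annotated start, were at hand for 8 of the 10 genes, not for Aplnr and Ramp2. Each window was searched on both strands for 6 short sequences. CAGGAA holds the core that ETS-family factors bind in blood vessel and other genes, and CCGGAA holds the same core. The sequence ACGTG differs from GCGTG in its first base only, and either can form the core of the hypoxia response element, which adrenomedullin and endothelin genes are known to use. AAGATGGC is the motif of the factor YY1, and TATAAA is the usual form of a TATA box. CAGGAA was present in the windows of 4 genes (Calcrl, Ednra, Apln and Ramp1), and 30.6% of all 32851 windows hold it, as do 29.4% of the 9424 genes with a window that reached the FPKM minimum. Among the 712 of these genes past the cut-off as lower the share was also 29.4%, and for GCGTG it was 46.2%. GCGTG was present in 4 (Adm, Calcrl, Ednrb and Ramp3) beside 32.4% of all windows and 57.2% of those 9424 genes, so 4 of 8 lies between these shares. A gene was counted if any of its windows held the motif, whereas each of the 8 genes has a single window. The shares by gene are therefore not like for like with the 8. ACGTG was found in the window of Edn1, beside 19.6% of windows and 29.6% of genes, and CCGGAA in that of Ramp3, beside 14.9% and 31.4%. AAGATGGC was found in 0 of the 8 windows, beside 2.75% of windows and 5.34% of genes, as was TATAAA, beside 13.6% and 8.68%. The stretches around CAGGAA in the 3 genes past the cut-off that hold it and around GCGTG in Adm, a ligand known to respond to hypoxia and here not past the cut-off, are printed 5′ to 3′ along the gene's strand, with the match in capitals. TTCCTG is the first motif read on the other strand, and CACGC is the second in the same way.
Calcrl, 67 bases before the start, chr2:84425316-84425345, minus strand: ggggtgatgtaaCAGGAAgctgtgatgttt
Calcrl, 136 bases before the start, chr2:84425385-84425414, minus strand: gttgctgctcctTTCCTGgggtaagctatt
Ednra, 116 bases before the start, chr8:77724551-77724580, minus strand: taaccaacttctCAGGAAggaaatagttaa
Apln, 112 bases before the start, chrX:48034948-48034977, minus strand: tccctctccctcTTCCTGcctctcttcccc
Adm, 90 bases before the start, chr7:110627555-110627583, plus strand: tttagaagcaagCACGCtggagagggagg
Adm, 54 bases before the start, chr7:110627591-110627619, plus strand: ggcaaatctgacCACGCccaccgtccgcc
The GENCODE model of Calcrl starts further upstream than the RefSeq one, so its first stretch and most of the second fall inside the annotated gene there, as does the whole RefSeq window of Ednrb. A match of this length describes the letters of the window and is not a shown binding site. Ramp1 carried CAGGAA too and was not past the cut-off.

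**Figure D1:**
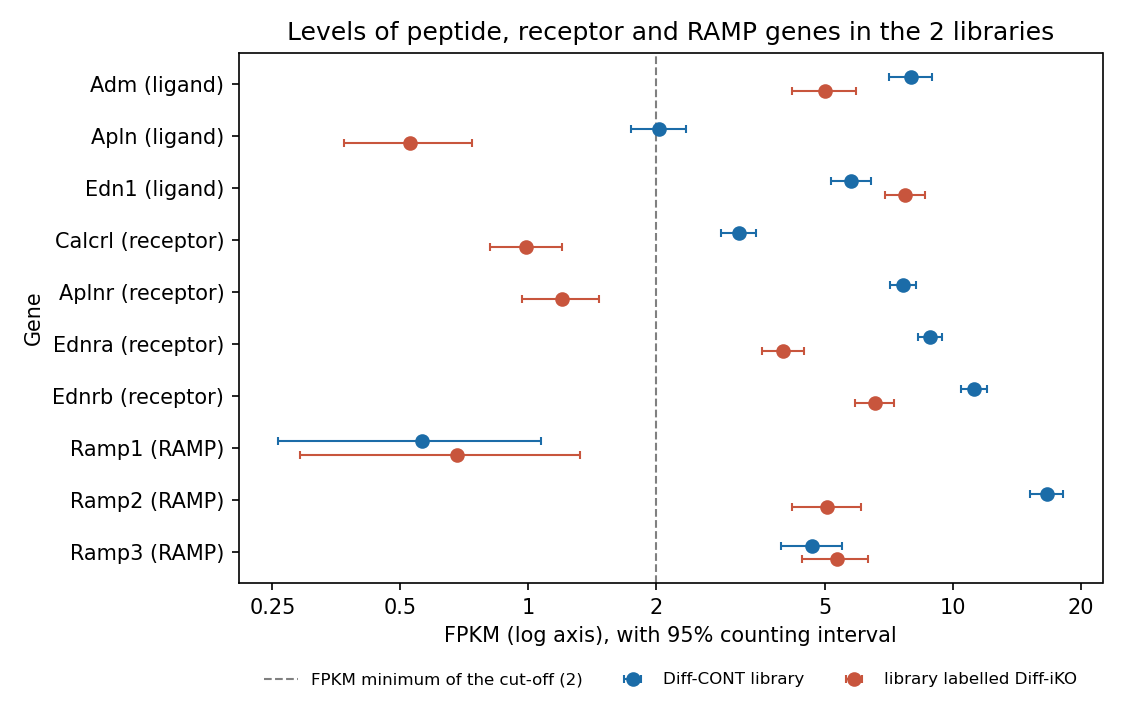
FPKM of the 10 genes (log axis) in the Diff–CONT library (blue) and the library labelled Diff–iKO (red), with bars for the exact 95% counting interval and a dashed line at the FPKM minimum of 2. The intervals of Adm, Apln, Edn1 and Ramp2 and of the 4 receptors do not overlap between the libraries, and those of Ramp1 and Ramp3 do.

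Among the ligands, the apelin gene was lower in the library labelled Diff–iKO, the adrenomedullin gene less so, and the endothelin-1 gene was not lower. Apln (chromosome X, 48025146 to 48034853, minus strand, GENCODE vM21 on GRCm38 as for all positions here) was at 2.04 FPKM (1.75 to 2.35) in Diff–CONT against 0.527 (0.369 to 0.736) in the library labelled Diff–iKO. It barely reached the FPKM minimum, with 180 and 35 fragments, and its log2 ratio was -1.95 (-2.51 to -1.41). The 419 X-linked genes that reached the minimum had a median log2 ratio of 0.20, beside -0.0091 for autosomal genes, so the value of Apln was far from the median of its chromosome. Adm (chromosome 7, 110627661 to 110629820, plus strand) was at 7.97 FPKM (7.07 to 8.94) and 4.99 (4.19 to 5.91). This log2 ratio of -0.68 (-0.98 to -0.37) did not reach the cut-off, although its interval lay below 0. Edn1 (chromosome 13, 42301476 to 42307990, plus strand), the endothelin precursor, went the other way with 5.76 FPKM (5.17 to 6.41) and 7.73 (6.91 to 8.59), a log2 ratio of 0.42 (0.20 to 0.64). These values rest on 337 fragments in each library, and Edn1 did not reach the cut-off either. An annotated antisense gene overlaps each of Adm and Edn1, and whether strand was used in counting is not given in the sources used here.

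All 4 receptor genes had the lower value in the library labelled Diff–iKO, and 3 of them were past the cut-off. Aplnr (chromosome 2, 85136225 to 85139923, plus strand), the apelin receptor, was at 7.65 FPKM (7.13 to 8.20) in Diff–CONT against 1.20 (0.969 to 1.47) in the library labelled Diff–iKO. These values differ 6.37-fold, a log2 ratio of -2.67 (-3.00 to -2.36) on 803 and 94 fragments, and Aplnr stood at place 116 of 12376 from the lowest ratio. It was the furthest from 0 of the 10 genes, and its interval did not overlap that of Calcrl, Ednra or Ednrb, while it did overlap that of Apln.

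Calcrl (chromosome 2, 84330626 to 84425411, minus strand), the shared receptor of adrenomedullin and CGRP, was at 3.13 FPKM (2.85 to 3.44) and 0.991 (0.812 to 1.20). It had 439 fragments in Diff–CONT against 104 in the library labelled Diff–iKO, which gave a log2 ratio of -1.66 (-1.98 to -1.35). Calcrl and Aplnr both lie on chromosome 2, less than 1 Mb apart.

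The endothelin receptors differed less between the libraries than Aplnr. Ednra (chromosome 8, 77663031 to 77724464, minus strand) was at 8.83 FPKM (8.27 to 9.43) and 3.99 (3.55 to 4.46), a log2 ratio of -1.15 (-1.34 to -0.96). Its value was past the cut-off, but its counting interval reached across a log2 ratio of -1, so the call rests on a narrow margin. Ednrb (chromosome 14, 103814625 to 103844402, minus strand) was at 11.2 FPKM (10.5 to 12.0) and 6.55 (5.89 to 7.26), and its log2 ratio of -0.78 (-0.96 to -0.60) did not reach the cut-off. That Ednra was past the cut-off and Ednrb was not does not by itself show that they differ. Their ratio, which is free of scaling between libraries, was 1.27 (1.16 to 1.40) Ednrb to Ednra in Diff–CONT against 1.64 (1.41 to 1.92) in the library labelled Diff–iKO, so that its log2 changed by 0.37 (0.10 to 0.63). Ednra overlaps an annotated transcript on the opposite strand.

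**Figure D2:**
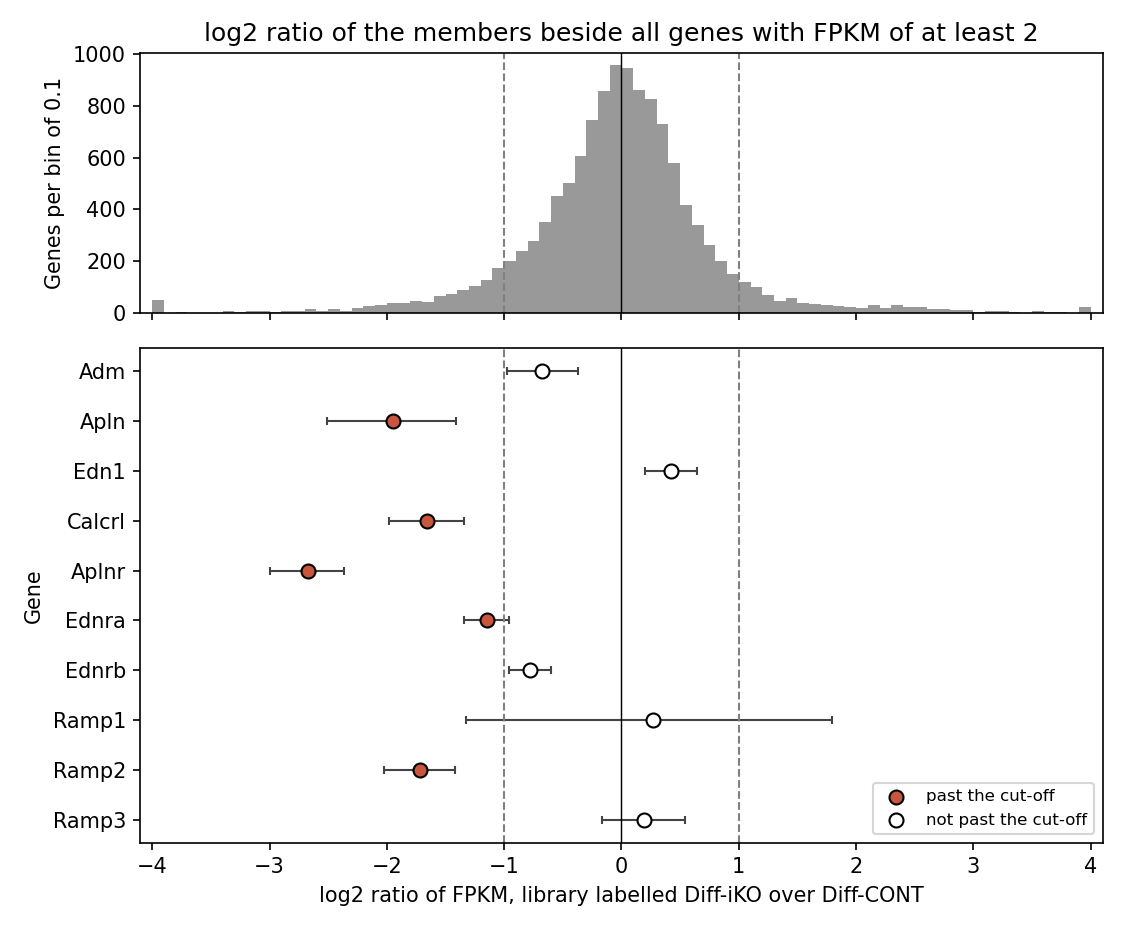
Upper panel, histogram of the log2 ratio of FPKM (library labelled Diff–iKO over Diff–CONT) for all 12376 genes that reached the FPKM minimum, with values beyond 4 in either direction, including genes listed at 0 in 1 library, drawn in the end bins. Lower panel, the ratio of each of the 10 genes with its exact 95% counting interval, filled where past the cut-off (dashed lines at -1 and 1), with Aplnr at -2.67 the furthest to the left.

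The RAMP genes did not move together. Ramp2 (chromosome 11, 101246028 to 101259546, plus strand), whose protein carries Calcrl to the cell surface as an adrenomedullin receptor, was at 16.7 FPKM (15.2 to 18.2) in Diff–CONT, the highest level of the 10 genes there. It was at 5.05 FPKM (4.18 to 6.09) in the library labelled Diff–iKO, with -1.72 (-2.03 to -1.42) as the log2 ratio. The GENCODE model of Ramp2 runs into Vps25 on the same strand, so the split of fragments between them is uncertain, and Vps25 was at 69.1 and 76.0 FPKM. Ramp3 (chromosome 11, 6658521 to 6677475, plus strand), which gives the other adrenomedullin receptor, was at 4.67 FPKM (3.94 to 5.49) and 5.33 (4.42 to 6.33), a log2 ratio of 0.19 (-0.17 to 0.54) whose interval holds 0. A pseudogene lies opposite Ramp3. Ramp1 (chromosome 1, 91179822 to 91225196, plus strand), the CGRP receptor partner, was at 0.564 FPKM (0.258 to 1.07) and 0.679 (0.290 to 1.32). Ramp1 stayed under the FPKM minimum on 9 and 8 fragments, and its log2 ratio of 0.27 (-1.32 to 1.80) means that no difference was detectable at this depth.

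In Diff–CONT, Ramp2 made up 76.1% of the summed FPKM of the 3 RAMP genes, Ramp3 21.3% and Ramp1 2.58%. In the library labelled Diff–iKO these shares were 45.7%, 48.2% and 6.14%, so that Ramp2 and Ramp3 stood at about the same level. The ratio of Ramp2 to Ramp3 was 3.57 (2.97 to 4.33) in the first and 0.948 (0.733 to 1.24) in the second, a log2 change of -1.91 (-2.38 to -1.43). The ratio of Ramp2 to Calcrl differed by less than counting error, at 5.32 (4.67 to 6.07) beside 5.10 (3.87 to 6.72), with a log2 change of -0.06 (-0.50 to 0.38), whereas Ramp3 to Calcrl went from 1.49 (1.23 to 1.80) to 5.38 (4.09 to 7.00), a log2 change of 1.85 (1.36 to 2.32).

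Ligand and receptor levels were then compared within each library, where the scaling between libraries plays no part. The receptor genes together summed to 30.9 FPKM in Diff–CONT against 12.7 in the library labelled Diff–iKO, and the 3 ligand genes to 15.8 and 13.2. Edn1 was below both of its receptor genes in Diff–CONT, at 0.652 (0.574 to 0.740) of Ednra and 0.512 (0.451 to 0.583) of Ednrb. It was above both in the library labelled Diff–iKO, at 1.94 (1.65 to 2.27) and 1.18 (1.01 to 1.37), log2 changes of 1.57 (1.27 to 1.86) and 1.20 (0.91 to 1.49). The ratio of Adm to Calcrl was 2.55 (2.18 to 2.96) and 5.04 (3.87 to 6.56), a log2 change of 0.99 (0.54 to 1.43). For Apln to Aplnr it was 0.266 (0.225 to 0.313) and 0.439 (0.290 to 0.657), with a log2 change of 0.72 (0.08 to 1.36). Apela, the second ligand of Aplnr, was at 25.0 FPKM in Diff–CONT against 25.6 in the library labelled Diff–iKO, far above Apln in both, and Apln made up 7.52% of the sum of the 2 ligand genes in the first and 2.02% in the second. In each of these ligand and receptor pairs the peptide gene thus stood higher relative to its receptor gene in the library labelled Diff–iKO.

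**Figure D3:**
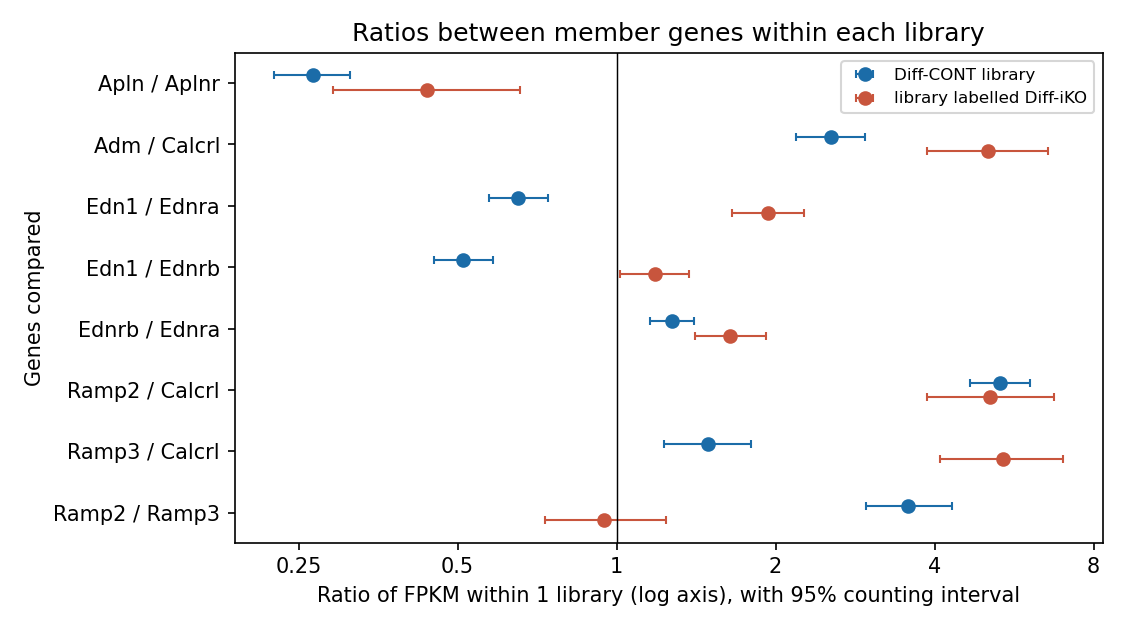
Ratios of FPKM between pairs of the genes within 1 library (log axis), in Diff–CONT (blue) and the library labelled Diff–iKO (red), with 95% counting intervals and a line at a ratio of 1. Edn1 lies below its receptors in Diff–CONT and above them in the other library, the intervals of Ramp2 to Calcrl overlap, and Ramp2 to Ramp3 goes from 3.57 to 0.948.

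The order of levels differed between the libraries. In Diff–CONT it ran from Ramp2 over Ednrb, Ednra, Adm, Aplnr, Edn1, Ramp3, Calcrl and Apln down to Ramp1. The counting intervals of neighbours overlapped there for Ednra and Adm, Adm and Aplnr, and Edn1 and Ramp3. In the library labelled Diff–iKO it ran Edn1, Ednrb, Ramp3, Ramp2, Adm, Ednra, Aplnr, Calcrl, Ramp1, Apln. The intervals of neighbours overlapped there except for Ednra and Aplnr, at 3.99 and 1.20 FPKM. Overlap of such intervals is a coarse guide, since the ratio of Edn1 to Ednrb had an interval just above 1 although their own intervals overlapped.

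The other 55 genes of these pathways were less shifted as a group. Of them 38 reached the FPKM minimum, 5 were past the cut-off as lower and 2 as higher, beside the 8.39% and 6.73% of all genes, and their median log2 ratio was -0.03. Of 7 other peptide ligands 2 reached the minimum, Apela and the CGRP gene Calca (11.0 and 14.7 FPKM), and 0 were past the cut-off. Among the other receptors Ackr3, a scavenger receptor that takes up adrenomedullin and the chemokine Cxcl12, was at 21.5 FPKM in Diff–CONT against 8.33 in the library labelled Diff–iKO, past the cut-off.

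Enzymes that cut peptide precursors went both ways. The proprotein convertase Pcsk6 was past the cut-off as higher, at 6.33 and 34.4 FPKM, and Pcsk5 as lower, at 8.94 and 3.87. Furin was at 61.1 and 64.0 FPKM. Ece1, the enzyme that releases endothelin-1 from its precursor, was at 63.0 and 39.2, not past the cut-off. Of the peptide-degrading enzymes Mme (neprilysin), which breaks down many small peptides, was past it as higher at 9.66 and 29.9 FPKM, and Ide was at 19.0 and 28.1.

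Of the 14 G proteins, receptor kinases and arrestins all reached the minimum and only Arrb1 was past the cut-off, at 14.2 and 6.47 FPKM. The most abundant were Gnas, the stimulatory G protein that couples Calcrl to cyclic AMP, at 791 and 528 FPKM, and Gnai2, of the inhibitory class that Aplnr uses, at 214 and 133. Of 13 adenylyl cyclases and phospholipases C beta 9 reached the minimum and 0 were past the cut-off, with Plcb3 at 32.3 and 31.6 FPKM and Adcy6 at 31.4 and 20.6. Of 6 transcription factors that act after Ednra in pharyngeal mesenchyme 3 reached the minimum. Hand2 was at 9.07 and 1.41 FPKM and Hand1 at 70.8 and 31.3, both past the cut-off as lower, and Dlx3 was at 4.86 and 4.61.

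In bulk RNA, fewer cells of a type and less RNA per cell cannot be told apart, so lists of cell type markers are given beside these genes. Of 14 endothelial markers, the cells best known for Calcrl, Ramp2, Apln and Aplnr, 12 reached the minimum, 7 were past the cut-off as lower and 1 as higher, and the median log2 ratio was -1.32. Their summed FPKM was 115 in Diff–CONT against 118 in the library labelled Diff–iKO, since Pecam1, which undifferentiated ESCs also express, was at 16.2 and 53.9 and Egfl7 at 24.3 and 32.5. None of the 14 markers was listed at 0 in either library. The log2 ratios of the 12 ranged from -4.08 for Sox17 to 1.73 for Pecam1. Kdr (12.2 and 4.37 FPKM) and Cdh5 (10.3 and 4.34), a growth factor receptor and a junction protein of endothelium, were among the 7 lower ones. Sox17 is also on the extraembryonic endoderm list, and without it the lowest ratio was the -3.77 of Erg. Sox17, Erg, Kdr and Cdh5 were named after their values were seen.

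All 4 cardiomyocyte markers of 8 that reached the minimum were past the cut-off as lower, with a summed FPKM of 48.9 and 10.6 and a median log2 ratio of -2.58. The 3 endocardial markers summed to 12.9 and 6.60 FPKM with 0 past the cut-off. Of the lymphatic endothelial markers 1 of 3 was past it as lower. Mesenchyme markers, relevant to Ednra, had 4 of 8 past the cut-off as lower with a median of -0.996, although their sum was 1835 and 1662 FPKM because Col1a1 dominated it. Smooth muscle and pericyte markers had 1 of 8 as lower and 2 as higher with sums of 638 and 899. The neural crest and melanoblast markers, relevant to Ednrb, were low in both libraries, at 15.2 and 14.3 FPKM in sum over 8 genes, with 1 of 5 past the cut-off as lower and 2 as higher.

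Other lineages differed too. Undifferentiated ESC markers had 5 of 6 past the cut-off as higher and a sum of 391 and 2568 FPKM, led by Dppa5a and Pou5f1. Extraembryonic endoderm markers had 6 of 8 as lower with a median of -3.32, although their sum was 922 and 1276 FPKM because Sparc, at 708 and 1244, dominated it. Trophoblast markers had 2 of 8 as lower, among them Hand1, and 5 as higher, with a median of 1.39 and a sum of 94.6 and 82.1 FPKM, and early blood markers 3 of 4 as lower, with the embryonic globins Hbb-bh1 and Hba-x listed at 0 in the library labelled Diff–iKO. Of 11 hypoxia response genes, a list relevant to Adm and Edn1, 4 were past the cut-off as lower and 0 as higher, with a median of -0.71, beside the -0.68 of Adm and the 0.42 of Edn1. The part of the cell type mixture and of oxygen supply in the values of the peptide and receptor genes was not tested.

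**Figure D4:**
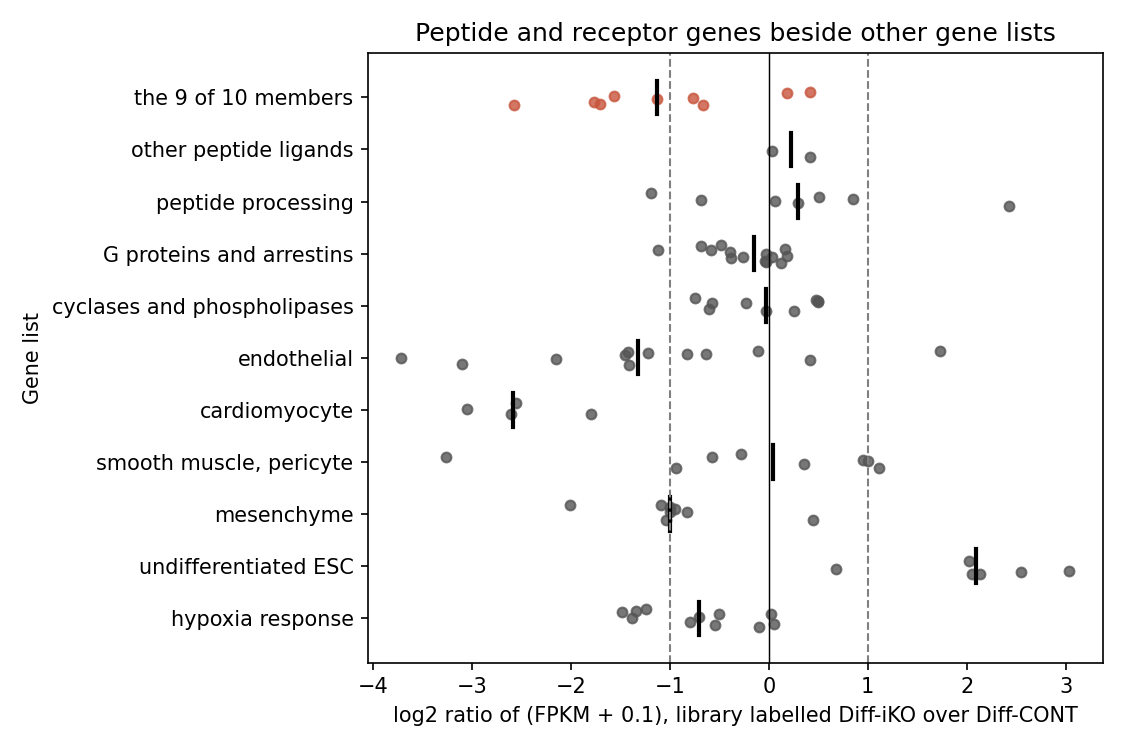
log2 ratio of FPKM + 0.1 (library labelled Diff–iKO over Diff–CONT) of each gene that reached the FPKM minimum, for the peptide pathway genes (red), 4 lists of other pathway genes, 5 marker lists and the hypoxia list (grey), with a black bar at each list's median and dashed lines at -1 and 1. The members' median of -1.13 lies near that of the endothelial and mesenchyme markers, at -1.32 and -0.996, between the cardiomyocyte markers at -2.58 and the undifferentiated ESC markers at 2.09.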

How the data were processed

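The deposited values are FPKM per gene in 2 columns, 1 per library, which were assigned by the column names. RNA was extracted with an RNeasy kit, and 1 µg of total RNA went into stranded mRNA libraries. The study's methods give STAR (2.7.9a) on mm10 and Cuffquant and Cuffnorm of Cufflinks (2.2.1), in a paragraph on public datasets. The gene annotation and strand setting are not given in the sources used here. Scaling by length makes low values of short transcripts such as Ramp1 the least precise, and shared exons or antisense genes can move fragments between genes.

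The ratio of the deposited FPKM values was taken per gene without a pseudocount, and with 0.1 for list medians. Fragments were recovered as FPKM × (shortest RefSeq transcript − offset) / step, with step and offset fitted on genes with 1 transcript of at least 1000 nucleotides, and the fit was tested on simulated data. They are approximate for Ramp1 and Ednrb, which have several transcripts. Changes of a ratio between libraries carry exact conditional intervals of the odds ratio. The conditions were not tested, since each has 1 library. All 10 members, every other pathway gene past the cut-off and the 2 highest of each role list were eligible to be named, with up to 3 of each marker list and Ino80. Sox17, Erg, Kdr and Cdh5 were named outside this rule, as were Dlx3, Vps25 and the neighbouring genes. The members and lists were chosen with earlier results of these data known. Alternatives were other FPKM minimums, FC limits, pseudocounts, 3 scalings, rows summed by symbol and the longest transcript. The scripts ran in Python 3.11.15 with scipy 1.17.1 for the intervals, numpy 2.4.6 and pandas 2.3.3 for tables, and matplotlib 3.10.9 for figures.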

Additional observations from a re-analysis of the deposited data

How the results depend on the processing

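A shared pseudocount cannot turn the sign of a log2 ratio, no symbol was repeated, and the 3 scalings shift all genes alike by less than any ratio of the 10 genes, so these alternatives bear on size only. With a pseudocount of 1, Apln (-0.99), Calcrl (-1.05) and Aplnr (-1.97) moved out of their counting intervals. The 5 genes past the cut-off as lower became 3 with a pseudocount of 1 (without Apln and Ednra), 3 with an FPKM minimum of 5 (without Apln and Calcrl), 2 with the minimum in both libraries (Ednra and Ramp2) and 1 with FC ≥ 4 (Aplnr). With FC ≥ 1.5 they became 7, Adm and Ednrb being added. They were the same 5 under the 3 scalings, the largest of which shifted all log2 ratios by -0.09. The median over all 10 members was -0.95, against -1.13 for the 9 above the minimum.

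The 5 other pathway genes past the cut-off as lower became 11 with a minimum of 1, 14 with none, 10 with FC ≥ 1.5 and 1 with FC ≥ 4, and the 2 higher became 1 with FC ≥ 4. Over all genes, 1038 lower and 833 higher became 1226 and 719 with each library scaled to the same sum. With a pseudocount of 0.1 they became 1002 and 807, and the same 5 peptide pathway genes were past the cut-off. A pseudocount of 1 gave 712 and 646. The counts were 1331 and 1071 with a minimum of 1, and 671 and 566 with a minimum of 5. They were 569 and 488 with the minimum in both libraries, and 2761 and 2794 with none. FC ≥ 1.5 gave 2177 and 1846, and FC ≥ 4 gave 237 and 278. The pseudocounts, scalings and FC limits leave the 12376 genes that reached the minimum unchanged, whereas other minimums do not. With the longest transcript, fragments of Ramp1 became 36 and 32 and those of Ednrb 1315 and 572, so their intervals would be narrower. No paired analysis was possible because each condition has 1 library, and for the same reason no library could be left out. Counting error limits Ramp1 and, in the library labelled Diff–iKO, Apln, Aplnr and Calcrl the most.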

Other observations

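The nearest genes with FPKM of at least 2 on either side of each of the 10 genes, 20 in all, were looked up after the values of the 10 genes were seen. Of these neighbours 2 were past the cut-off as lower (Sbf2 beside Adm and Rnf219 beside Ednrb), 1 as higher and 17 were not past it. These 3 of 20 are near the 15.1% of all genes past the cut-off in either direction. The 1 higher was Tfpi, an inhibitor of coagulation, whose annotated end lies 7.44 kb from Calcrl. With 35.2 FPKM in Diff–CONT, Tfpi reached 139.6 in the other library, which gave a log2 ratio of 1.99, while Calcrl was at 3.13 and 0.991. Neither neighbour of Apln (Ocrl and Zdhhc9) nor of Aplnr (Tnks1bp1 and Ptprj) was past the cut-off. Not all of the neighbours are close, as Ptprj lies 5290 kb from Aplnr and Rnf219 lies 633 kb from Ednrb.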
